A study of Mus musculus with 9 samples.

Results

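Regulatory T cells (Tregs) taken from recovering lungs were compared with Tregs taken from the spleens of injured mice, so that both sides of the comparison carried the same injury and differed by organ. The comparison used 6 of the 9 arrays of the series, 3 from resolving lung and 3 from resolving spleen, and covered all 21024 genes whose row could be given 1 symbol, of 31351 rows. Of these genes, 7490 were bright, with a mean log2 expression value of at least 5 over the 6 arrays, and they are described first. Genes on 12 marker lists of other resident cells (400 measured genes, 91 of them bright) are described apart.

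All mice were Foxp3EGFP reporter animals on a C57BL/6 background, aged 8 to 12 weeks, in which cells that transcribe Foxp3 carry green fluorescent protein. The resolving lung and resolving spleen groups came from mice with lipopolysaccharide-induced lung injury, given Escherichia coli LPS O55:B5 at 3 mg/kg into the trachea. The control lung group (3 arrays) came from uninjured mice. It entered the estimate of the spread only, and its values are given beside the others as a description. Cells were sorted as CD4+ GFP+ after a Percoll gradient. Lungs had been digested with enzymes, whereas spleens had been dissociated mechanically, so organ and preparation cannot be told apart. The day of harvest, the time of day, the number of mice per array and any scan batch are not given in the sources used here. Nor do the labels state that each replicate is another animal. The p-values therefore reflect variation among the arrays at hand, some of which may be technical.

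Tregs are CD4 T cells that depend on the transcription factor Foxp3 and hold back immune responses. Resting Tregs recirculate through spleen and lymph nodes with the help of homing receptors, whereas effector Tregs leave the circulation, carry activation receptors and chemokine receptors, and settle in tissues. Tregs of tissues are known for the receptor of the alarmin IL-33 (Il1rl1, also called ST2) and for amphiregulin (Areg), a ligand of the epidermal growth factor receptor that supports epithelial repair, and after lung injury in mice Tregs are known to promote its resolution.

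Among the bright genes that rose in lung were several subunits of AP-1, a family of dimeric transcription factors of the Fos, Jun and Atf type that T cells use downstream of antigen and injury signals. The promoters of 4 leading genes that carry its motif are shown for that reason (RefSeq, GRCm38.p6, 300 bases around the start of the gene). The capitals mark matches to TGANTCA, which reads the same on both strands. The Mmp12 promoter lies at chr9:7347124-7347423 on the plus strand (the table holds 2 promoters each of Mmp12 and Emp1, and 1 with a match is shown). Those of C3ar1 (chr6:122856108-122856407, minus strand), Gpnmb (chr6:49036268-49036567, plus strand) and Emp1 (chr6:135362681-135362980, plus strand) follow, each 5′ to 3′ along its gene.
Mmp12: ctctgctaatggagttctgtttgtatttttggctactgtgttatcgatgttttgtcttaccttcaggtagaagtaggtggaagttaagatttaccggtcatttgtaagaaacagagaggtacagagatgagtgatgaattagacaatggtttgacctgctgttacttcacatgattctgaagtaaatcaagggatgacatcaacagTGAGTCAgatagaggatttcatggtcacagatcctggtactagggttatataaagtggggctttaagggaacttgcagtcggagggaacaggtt
C3ar1: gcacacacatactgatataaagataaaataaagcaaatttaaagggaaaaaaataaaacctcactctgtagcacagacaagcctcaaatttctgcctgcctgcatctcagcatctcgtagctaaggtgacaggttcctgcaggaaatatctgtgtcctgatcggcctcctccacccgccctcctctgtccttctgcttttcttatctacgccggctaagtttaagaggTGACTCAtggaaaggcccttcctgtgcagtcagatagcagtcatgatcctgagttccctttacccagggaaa
Gpnmb: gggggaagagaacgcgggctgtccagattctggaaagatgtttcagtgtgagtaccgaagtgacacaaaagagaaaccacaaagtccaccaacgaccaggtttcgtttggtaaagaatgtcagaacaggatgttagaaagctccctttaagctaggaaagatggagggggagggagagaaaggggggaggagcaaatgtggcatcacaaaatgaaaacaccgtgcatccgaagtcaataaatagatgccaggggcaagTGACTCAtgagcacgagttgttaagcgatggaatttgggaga
Emp1: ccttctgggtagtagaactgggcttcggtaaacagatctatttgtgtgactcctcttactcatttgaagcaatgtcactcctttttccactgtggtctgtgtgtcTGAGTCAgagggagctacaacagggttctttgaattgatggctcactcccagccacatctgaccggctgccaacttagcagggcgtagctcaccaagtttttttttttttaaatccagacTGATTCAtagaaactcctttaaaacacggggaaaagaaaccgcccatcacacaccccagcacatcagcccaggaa
Of the 40 leading genes named below by size of difference, 30 had a promoter in the table. The motif stood in 6 of the 16 such genes that were higher in lung and in 1 of the 14 that were lower. These few genes were not tested. Over the wider sets the motif stood in 5.29% of the 435 promoters of bright genes higher in lung and 3.66% of the 382 promoters of bright genes lower in lung, beside 4.55% of the 7487 promoters of all bright genes and 7.81% of all 32851 promoters of the table. A match is a description of letters and not a binding site. Other motifs were sought on both strands. The Tcf and Lef motif CTTTGAT stood in 2.99% of the promoters of bright genes higher in lung, 3.14% of those lower in lung and 2.47% of those of all bright genes. For the GATA motif AGATAA the shares were 8.05%, 5.76% and 5.88% in the same order. For the Klf motif CCACACCC they were 5.52%, 4.19% and 3.87%.

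Between 44.8% and 47.5% of genes per array lay above the dim level. This level was set on each array (3.32 to 3.52) so that 95% of 915 olfactory receptor genes, which T cells are not known to use, fall at or under it. The label of the cells held in every array. Foxp3 lay at 10.58, 10.43 and 10.75 in resolving lung and at 10.66, 10.67 and 10.74 in resolving spleen, and Cd4 at 10.83, 10.92 and 10.82 against 10.99, 11.06 and 11.06. Neither differed past the threshold. The log2 difference, lung minus spleen, was -0.10 for Foxp3 (95% interval -0.30 to 0.09, adjusted p = 0.594) and -0.18 for Cd4 (-0.33 to -0.02, adjusted p = 0.192). Resolving lung replicate 1 stood apart from the other lung arrays. Its mean over 49 macrophage markers was 6.44, against 4.53 and 4.46 in the other resolving lung arrays, and among the bright genes past the threshold outside the lists of other cells it was the highest lung array for 267 of 441 genes higher in lung and the lowest for 203 of 403 genes lower in lung. The replicate 1 arrays of both organs also shared a low level of Xist, the noncoding RNA of the inactive X chromosome, at 2.44 in lung and 2.33 in spleen, where the other 7 arrays lay between 8.23 and 9.13. The Y-linked genes Ddx3y and Uty lay between 6.89 and 8.21 and between 5.73 and 6.99 over all 9 arrays, those with high Xist among them. Xist and the Y-linked genes did not differ between the organs past the threshold. Resolving spleen replicates 2 and 3 carry the same description label, but only 1140 of 21024 genes had identical values in both, and they were kept as separate samples.

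Areg, chemokine receptors such as Ccr2 and inhibitory receptors such as Ctla4 were higher in resolving lung Tregs than in splenic Tregs of injured mice. So were AP-1 subunits such as Fosl2 and most measured cell division genes, while Id3, Cxcr5 and Izumo1r were lower. Most genes that define the lineage did not pass the threshold, nor did most bright genes of any kind. Over all 21024 genes 556 were higher and 592 lower (5.46% together). Of the 7490 bright genes, 449 were higher and 416 lower in lung past a Benjamini-Hochberg adjusted p of 0.05 in limma's moderated test over all 21024 genes (5.99% and 5.55%, together 11.5%). By at least 2-fold, 197 were higher and 57 lower. Outside the lists of other cells, 441 of 7399 bright genes were higher and 403 lower, with median log2 differences of 0.868 and -0.594 among them. The rises reached further than the falls, from 0.24 to 3.33 against -0.27 to -2.15 on the log2 scale. Over all bright genes the median difference was -0.033.

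Replicate numbers were taken to pair the arrays of injured mice, which no label states. Deviations of same-numbered lung and spleen arrays correlated weakly (0.13 to 0.17 over all genes). The replicate block changed the counts. With the 6 arrays alone and the replicate number as a block, 73 bright genes were higher and 49 lower, and 114 of the 865 bright calls were kept. Among the genes named in the text, calls kept in that fit lay just under the threshold, at adjusted p-values of 0.0496 to 0.0499. With all 9 arrays and a block for the 6 arrays of injured mice, an alternative chosen after seeing the data, 431 were higher and 395 lower, and 682 of the 865 were kept. No bright call changed its direction in any alternative. Most alternatives could not have changed it. Lung and spleen arrays did not overlap in any of the 865 bright calls, so leaving out arrays keeps the sign. The block leaves the difference itself as it was. Without spleen replicate 1, the array whose absence lowered the counts most, 235 were higher and 151 lower. At the brightness limit, among genes past the threshold, Kntc1 (mean 5.0) and BC051226 (5.01) stood just inside, and Bphl (4.99) and Vaultrc5 (4.99) just outside.

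**Figure D1:**
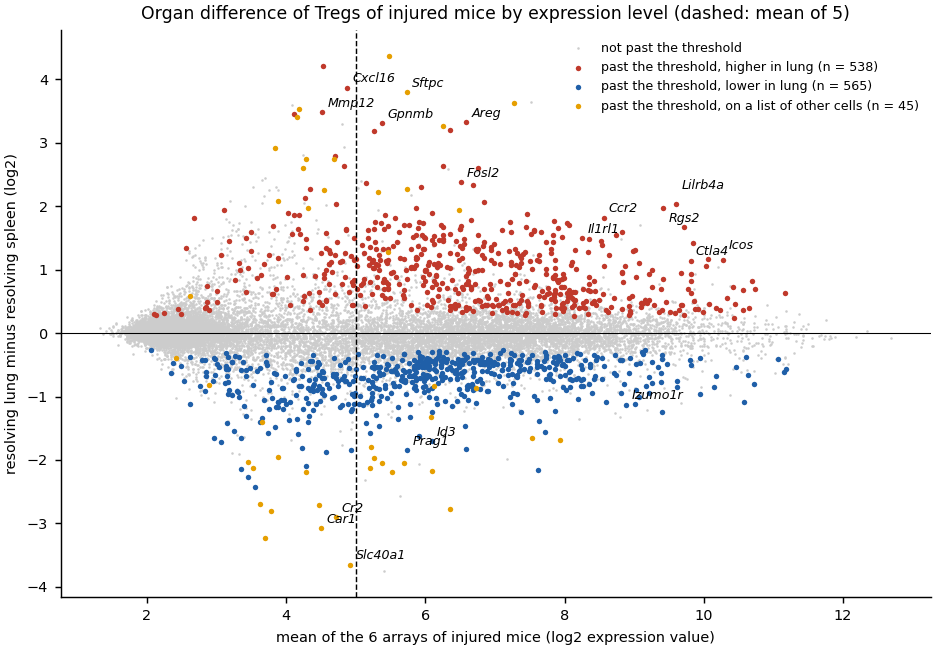
Each point is 1 of 21024 genes: the horizontal axis gives its mean log2 expression value over the 6 arrays of injured mice, and the vertical axis its log2 difference, resolving lung minus resolving spleen. Coloured points passed the threshold, orange ones being on a list of other cells, and right of the dashed line at 5, where 865 genes passed, Areg at 3.33 stands highest among the red points.

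Of the 15 largest rises among bright genes outside the lists of other cells, Areg was first. It lay at 8.82, 8.23 and 7.71 in resolving lung and at 5.19, 5.38 and 4.20 in resolving spleen, a log2 difference of 3.33 (SE 0.35, 10.04-fold, adjusted p = 0.00274). The lowest lung array stood more than 2 log2 units above the highest spleen array. In control lung Areg was at 7.95, 8.14 and 8.23, within the range of the injured lung. Gpnmb, a transmembrane glycoprotein best known from macrophages and pigment cells, lay at 7.63, 6.91 and 6.55 in lung and at 3.60, 3.63 and 3.94 in spleen (difference 3.31, SE 0.25, adjusted p = 0.00136). Unlike Areg, it was low in control lung, at 4.34, 4.02 and 4.37, so the 3 injured lung arrays stood above all other 6.

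A pair of neighbouring immunoglobulin-like receptor genes of the gp49 family followed. Lilrb4a, an inhibitory receptor, lay at 11.08, 10.44 and 10.33 in lung against 8.87, 8.61 and 8.25 in spleen (difference 2.04, SE 0.29, adjusted p = 0.00797). Lilr4b lay at 8.50, 7.77 and 7.61 against 4.76, 4.52 and 4.97 (difference 3.21, SE 0.25, adjusted p = 0.00136). These close copies may share signal, so their values are uncertain as separate measurements. Havcr2, the inhibitory receptor TIM-3, lay at 8.40, 7.95 and 7.31 against 5.49, 6.20 and 5.76 (difference 2.07, SE 0.30, adjusted p = 0.00777). In all of these genes the lung and spleen arrays did not overlap, which was part of the rule that chose them. Arrays did not overlap in 37.8% of all bright genes.

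Other leading genes were of mixed function. Cdkn1a, the cyclin-dependent kinase inhibitor p21, lay at 8.44, 8.11 and 7.66 against 5.30, 5.91 and 5.16 (difference 2.61, SE 0.24). Emp1, a tetraspan membrane protein whose promoter is shown above with 2 matches to the AP-1 motif, lay at 6.49, 6.30 and 6.19 against 4.14, 4.24 and 3.53 (difference 2.36, SE 0.25). Their adjusted p-values were 0.00196 and 0.00274, and lung and spleen arrays stood apart in both. Cpd, a carboxypeptidase, and Ctla2a, which resembles the propeptide of cathepsin L, differed by 2.33 and 2.31 with lung replicate 1 highest (8.87 and 8.21), and by 1.81 and 1.75 without it. Ptafr, the receptor of platelet activating factor, differed by 1.97, and Aspm, a mitotic spindle protein, by 1.89. With the replicate block in the 6 arrays alone, 10 of the 15 rises kept their call, each narrowly (adjusted p = 0.0496). The other 5 did not, among them Cpd, Ctla2a, Havcr2 and Ptafr (0.0712 to 0.0971). All 15 kept it in the fit of 9 arrays with a block and all 15 without lung replicate 1.

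The 15 largest falls among bright genes were smaller and less bright. Prag1, a pseudokinase of the cytoskeleton, lay at 4.55, 4.60 and 5.28 in lung and at 6.63, 6.69 and 6.66 in spleen (difference -1.85, SE 0.17, adjusted p = 0.00196). Id3, an inhibitor of E proteins that restrains effector differentiation of T cells, lay at 5.17, 5.25 and 5.29 against 7.13, 7.07 and 6.60 (difference -1.70, SE 0.19, adjusted p = 0.00313). For Id3 the 3 control lung arrays, at 5.72, 5.37 and 5.04, also stood below all spleen arrays. Cnr2, a cannabinoid receptor of immune cells, lay at 4.21, 4.56 and 4.45 against 5.88, 6.19 and 5.90 (difference -1.58, SE 0.13, adjusted p = 0.00176). Both groups were tight, and the gap between them was wider than either range.

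Cxcr5, the receptor that brings follicular T cells and B cells to the B cell zone, lay at 6.82, 7.50 and 7.44 in lung against 8.26, 8.70 and 8.46 in spleen (difference -1.22, SE 0.21, adjusted p = 0.0165). Fcmr, the receptor for IgM that B cells also carry, lay at 5.40, 5.97 and 5.67 against 6.99, 8.18 and 7.36 (difference -1.83, SE 0.28, adjusted p = 0.0103). B cell markers were lower in lung too, as given below, and their part in these 2 results was not tested. Dzip1, Ifit1bl1, Gucy1a1 (a subunit of soluble guanylate cyclase), Ctse (the protease cathepsin E), Cnn3 (calponin), Gsta4 (a glutathione transferase), Zfp418, Dennd2d, Pacsin1 and Acvr1b (an activin receptor) were lower as well, from the -1.62 of Dzip1 to the -1.17 of Acvr1b. Under the replicate block in the 6 arrays alone, 6 of the 15 falls kept their call, each narrowly (adjusted p = 0.0496), and 9 did not (0.0501 to 0.159). In the fit of 9 arrays with a block Ifit1bl1, Zfp418 and Acvr1b lost it (0.0506 to 0.0524), and without lung replicate 1 Gucy1a1, Ctse and Acvr1b did (0.0545 to 0.0806).

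**Figure D2:**
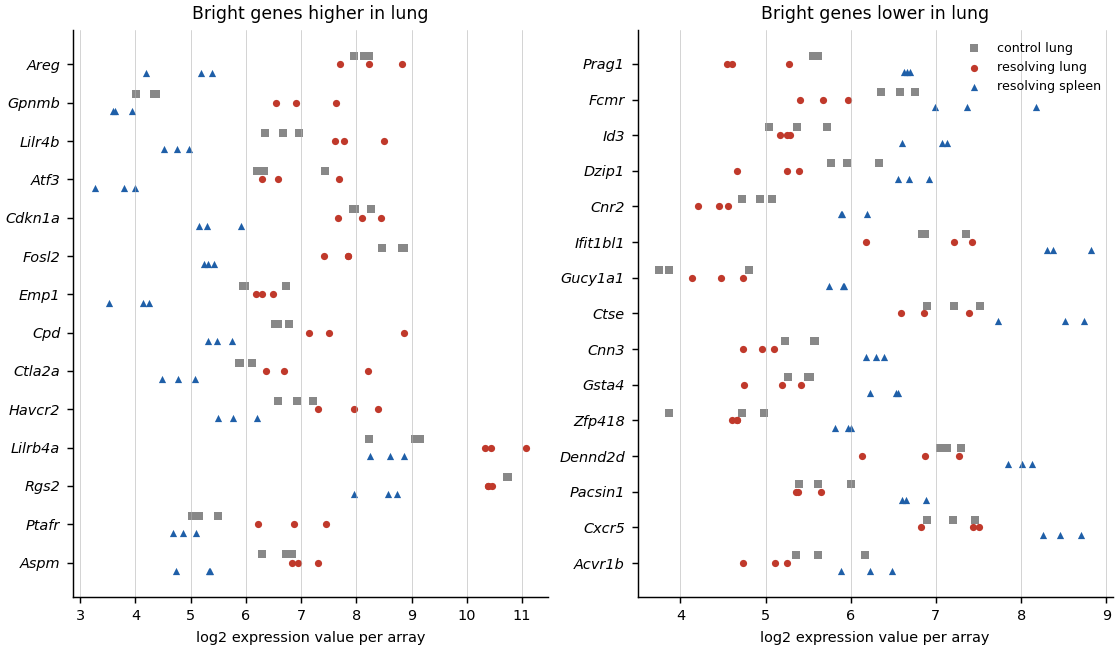
Leading rises (left, 14 genes) and falls (right, 15 genes) among bright genes outside the lists of other cells, with 1 point per array on the log2 expression scale for control lung (grey squares), resolving lung (red circles) and resolving spleen (blue triangles). Red and blue points do not overlap in any row, and for Areg the lung arrays lie between 7.71 and 8.82 while the spleen arrays lie between 4.20 and 5.38.

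Of all bright genes, 11.5% passed the threshold, and the genes that define Tregs passed at a similar rate. The counts of every list below stand beside 5.99% of all bright genes higher and 5.55% lower. Over all genes these shares were 2.64% and 2.82%. Of 17 measured genes of the Treg core list, 16 of them bright, Ctla4 was higher and Izumo1r lower. Both kept their call with the replicate block. Ctla4, the inhibitory receptor that binds B7 ligands, lay at 10.35, 10.37 and 10.44 in lung and at 9.35, 9.11 and 9.28 in spleen (difference 1.14, SE 0.08, 2.20-fold, adjusted p = 0.00136). Izumo1r, the folate receptor 4 of Tregs, went the other way, at 8.25, 8.30 and 8.42 against 9.26, 9.46 and 9.61 (difference -1.13, SE 0.12, adjusted p = 0.0028). Il2ra, the high-affinity subunit of the IL-2 receptor, was at 10.34, 10.30 and 10.31 in lung and 10.53, 10.40 and 10.47 in spleen (difference -0.15, adjusted p = 0.396), and Ikzf2 (Helios) differed by 0.28 (adjusted p = 0.14). Of 15 genes of T cell identity, such as the CD3 chains, 0 passed the threshold in either direction.

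Of 23 measured molecules through which effector Tregs act, 10 were higher in lung, 0 were lower and 13 did not pass (median difference 0.83, beside 0.009 over all genes), among them Ctla4 and Havcr2, given above. Icos, a costimulatory receptor of effector Tregs, lay at 10.99, 10.93 and 10.68 against 9.57, 9.78 and 9.76 (difference 1.16, SE 0.10, adjusted p = 0.00176). Gzmb, the protease granzyme B, lay at 9.40, 8.69 and 8.64 against 7.02, 7.47 and 7.05 (difference 1.73, SE 0.22, adjusted p = 0.00532). Fgl2, a secreted suppressive protein, differed by 1.77 (adjusted p = 0.00895), Tigit by 1.00, Lgals1 by 0.83 and Cd274 (PD-L1) by 0.66. Il10, the suppressive cytokine, lay at 7.31, 5.93 and 6.19 in lung and at 5.06, 4.93 and 3.96 in spleen. Its difference of 1.82 (SE 0.42) passed narrowly (adjusted p = 0.0446), and it lost the call without lung replicate 1 (0.0744) and with the replicate block in the 6 arrays alone (0.0909). Tgfb1 and Lag3 did not pass, at means of 9.31 and 5.96 in lung and 9.37 and 5.99 in spleen. After blocking by replicate number, 1 of the 23 genes was higher in the 6 arrays alone and 11 in the fit of 9 arrays.

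Of the transcription factors of effector and tissue Tregs, 9 of 21 were higher and 0 were lower (median difference 0.70, and 0.45 without lung replicate 1). The count was 5 without spleen replicate 1 or 3. Nfil3, a basic leucine zipper factor, lay at 7.41, 7.43 and 7.14 in lung and at 5.42, 5.99 and 5.63 in spleen (difference 1.65, SE 0.17, adjusted p = 0.0028). Id2, of the same gene family as Id3 described above, rose where Id3 fell, at 10.17, 9.20 and 9.17 against 7.96, 8.23 and 7.73 (difference 1.54, SE 0.26, adjusted p = 0.0138). Without lung replicate 1 the difference of Id2 was 1.21. Bhlhe40, Ahr (the aryl hydrocarbon receptor), Prdm1 (Blimp-1), Runx2, Rora and Hif1a were higher by 1.28, 1.12, 1.07, 0.81, 0.67 and 0.56. Of 24 genes of helper T cell lineages, 2 were higher, Cxcr3 (described below) among them, and 0 were lower, and 0 passed with a replicate block in the 6 arrays alone. Gata3, Irf4 and Batf did not pass, with means of 8.40, 7.36 and 7.26 in lung and 8.30, 7.16 and 6.94 in spleen. When replicates were blocked, 1 gene of this list was higher in the 6 arrays alone and 9 in the fit of 9 arrays.

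Factors of resting T cells were on the other side, with 0 of 17 higher and 3 lower (median difference -0.69, and -0.36 without lung replicate 1). Id3 was one of them, and Igfbp4 fell by 1.03 (SE 0.18, adjusted p = 0.0153). Zbtb7b, which is dim here, fell by 0.34 (adjusted p = 0.0447). For other members lung replicate 1 was far below the rest. Tcf7, the factor TCF-1, was at 7.99, 9.49 and 9.91 in lung and at 10.31, 10.18 and 10.21 in spleen. Bcl2, which protects resting T cells from death, was at 6.42, 7.93 and 8.24 against 8.94, 8.85 and 8.87. Both had lung arrays below all spleen arrays but did not pass the threshold (adjusted p = 0.186 and 0.0989). Lung and spleen arrays did not overlap, in either direction, in 37.8% of all bright genes. Without lung replicate 1, 6 of the 17 genes were lower, as were 6 without lung replicate 3 and 1 without spleen replicate 1 or 2. With the replicate block, 1 was lower in the 6 arrays alone and 2 in the fit of 9 arrays.

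Receptors for homing to lymphoid organs and for egress from tissue gave calls both ways, with 3 of 19 higher, 1 lower (Cxcr5) and a median of -0.15, which was 0.12 without lung replicate 1. Ccr7 and S1pr1 had means of 8.85 and 9.64 in lung and 8.98 and 9.82 in spleen. The members that rose were Cxcr4, P2ry10 and Cd69. Cxcr4, the receptor of CXCL12, lay at 10.24, 10.71 and 10.74 against 9.43, 8.89 and 9.11 (difference 1.42, SE 0.17, adjusted p = 0.00449). Cd69, which holds T cells in tissue by opposing S1pr1, differed by 0.82 (adjusted p = 0.0311). Under the replicate block in the 6 arrays alone Cxcr4, P2ry10 and Cd69 did not pass (0.0871 to 0.141). In the fit of 9 arrays Cd69 alone did not (0.0518).

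Receptors for inflammatory chemokines and lipid attractants were higher for 7 of 23 and lower for 2, with a median of 0.46. Leaving out any 1 array but lung replicate 1 or 3 brought the 7 down to 3 or 4. Ccr2, which draws cells to the chemokine CCL2, lay at 9.48, 9.59 and 9.35 in lung and at 7.53, 7.89 and 7.54 in spleen (difference 1.82, SE 0.11, 3.53-fold, adjusted p = 0.00135). Its lowest lung array stood well above its highest spleen array. Ccr8, a receptor known from Tregs of tissues and tumours, lay at 10.12, 8.93 and 8.66 against 7.72, 8.02 and 7.81 (difference 1.39, SE 0.33, adjusted p = 0.0467). Cxcr3, the receptor of interferon-induced chemokines, lay at 9.48, 9.25 and 9.18 against 8.11, 8.47 and 8.42 (difference 0.97, SE 0.13, adjusted p = 0.0065). Gpr132, Ltb4r1 (the leukotriene B4 receptor) and Cx3cr1 were higher too, the last 2 with means under 5. Ptger2, a prostaglandin E2 receptor, fell by 0.54 and Gpr34 by 1.08. After blocking by replicate number, 3 of the 23 were higher and 0 lower in the 6 arrays alone, and 8 and 0 in the fit of 9 arrays, so the falls of Ptger2 and Gpr34 were lost in both (0.112 and 0.203, then 0.0501 and 0.0822).

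Among receptors for alarmins and cytokines, 6 of 31 were higher and 1 lower, and the rises were in the IL-1, IL-17 and interferon receptor families. Il1rl1, the IL-33 receptor, lay at 8.93, 9.23 and 8.84 in lung and at 7.14, 7.84 and 7.54 in spleen (difference 1.50, SE 0.17, 2.82-fold, adjusted p = 0.00364). In control lung it was at 9.59, 9.50 and 9.56, above the injured lung. Both chains of the IL-18 receptor were higher, Il18rap by 1.25 and Il18r1 by 0.87 (adjusted p = 0.00256 and 0.00364). Il17rb, Il1r1 and Ifngr1 differed by 1.50, 1.89 and 0.70. Il27ra, a chain of the IL-27 receptor, fell by 0.51 (adjusted p = 0.0112). The IL-2 receptor chains Il2rb and Il2rg, at means of 10.47 and 11.40 in lung and 10.59 and 11.43 in spleen, did not pass. When replicates were blocked, 3 were higher and 0 lower in the 6 arrays alone, and 6 and 1 in the fit of 9 arrays.

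For adhesion, 5 of 28 integrins and related genes were higher and 1 was lower. The median was 0.42, and 0.09 without lung replicate 1, when 7 were higher. Itgae, the CD103 chain that binds epithelial E-cadherin, lay at 8.58, 8.50 and 8.30 against 6.70, 7.14 and 7.22 (difference 1.44, SE 0.19, adjusted p = 0.00553). Itgav, Cd44, Emb and Emp1 rose by 0.78, 0.78, 0.69 and 2.36, and the fall was that of Vcam1, which stands on the list of red pulp macrophages as well. Of the TNF receptor family and its ligands, 0 of 17 were higher and 3 were lower. Cd27 fell by 0.37 (SE 0.07, adjusted p = 0.0182), Ltb by 0.54 and Tnfsf14 by 0.73. With the replicate block in the 6 arrays alone, 1 of 28 adhesion genes was higher, 1 was lower, and 1 of the 17 TNF family genes was lower. In the fit of 9 arrays these counts were 5, 1 and 2.

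**Figure D3:**
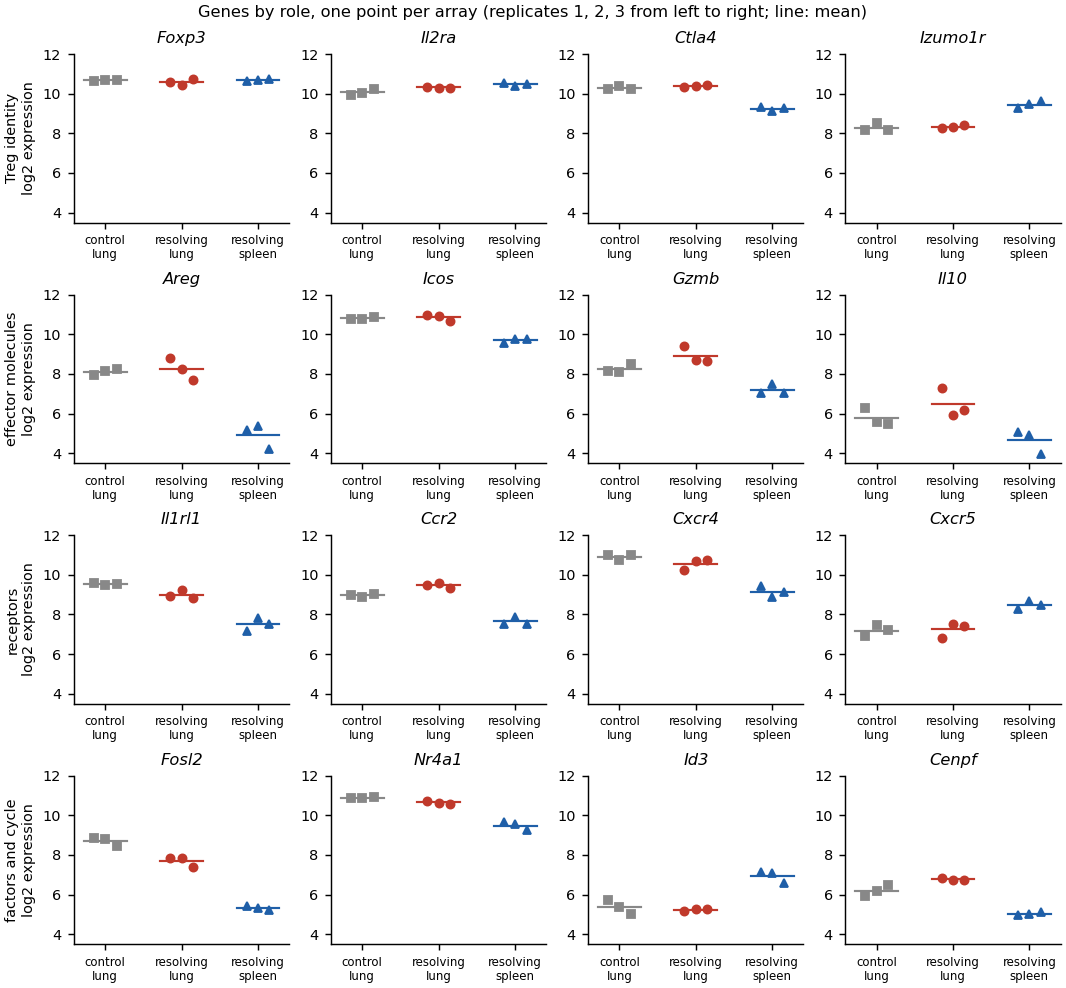
Values of 16 genes by role on 1 log2 scale, with 1 point per array and a line at the mean of each group of 3. Foxp3 and Il2ra lie above 10 in every group but for 1 control array of Il2ra at 9.96, Ctla4, Areg, Icos, Gzmb, Il10, Il1rl1, Ccr2, Cxcr4, Fosl2, Nr4a1 and Cenpf are higher in resolving lung than in resolving spleen in all 3 arrays, and Izumo1r, Cxcr5 and Id3 are lower.

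AP-1 and other immediate early genes were higher for 10 of 29 and lower for 2 (median 0.44). Without lung replicate 2, 6 were higher, and without lung replicate 1, 4 were lower. Fosl2, the AP-1 subunit Fra-2, lay at 7.85, 7.85 and 7.41 in lung and at 5.42, 5.31 and 5.24 in spleen (difference 2.38, SE 0.15, 5.20-fold, adjusted p = 0.00135). Atf3, a stress-induced factor of the same superfamily, lay at 7.69, 6.59 and 6.30 against 3.80, 4.00 and 3.26 (difference 3.18, SE 0.43, adjusted p = 0.0063). In control lung Fosl2 was at 8.87, 8.82 and 8.46, above the injured lung, and Atf3 at 7.43, 6.32 and 6.20, within or just below its range. Nr4a1, an orphan receptor induced by antigen receptor signals, lay at 10.74, 10.62 and 10.59 against 9.65, 9.54 and 9.24 (difference 1.17, SE 0.10, adjusted p = 0.00176). Fosb, Junb, Crem, Nfkbiz and the phosphatases Dusp4, Dusp10 and Dusp1 rose by 1.12, 0.85, 1.09, 0.65, 1.88, 1.07 and 1.06. Dusp2 and Ier5 fell by 0.53 and 0.35. Jun, Jund and Egr1 did not pass, with means of 9.84, 9.45 and 6.43 in lung and 9.83, 9.47 and 6.95 in spleen. Under the replicate block, 5 were higher and 0 lower in the 6 arrays alone, and 10 and 1 in the fit of 9 arrays.

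Genes around these were mixed. Sik1, a kinase of the CREB pathway, lay at 8.55, 8.88 and 8.73 in lung and at 7.49, 7.18 and 6.95 in spleen (difference 1.51, SE 0.16, adjusted p = 0.0028), and at 9.85, 9.53 and 9.47 in control lung. Its call was lost with the replicate block in the 6 arrays alone (0.0642). Of 27 NF-kB genes, 4 were higher and 3 lower, and Tnfaip3 (A20), an inhibitor of the pathway, was higher by 1.68 (SE 0.26, adjusted p = 0.0103) while Rela, a subunit, fell by 0.42 (adjusted p = 0.00605). Of 23 heat shock and stress genes, Hsp90b1 alone was higher, and Hspa1a, at means of 9.93 in lung and 8.23 in spleen, did not pass (adjusted p = 0.0512). After blocking by replicate number in the 6 arrays alone, 0 genes of either list passed. Of 20 regulators of G protein signalling, 5 were higher and 0 lower. Rgs2 lay at 10.39, 10.45 and 10.38 against 8.58, 8.74 and 7.96 (difference 1.98, SE 0.17, adjusted p = 0.00176), and Rgs1 and Rgs16 rose by 0.95 and 1.32. In this list 2 were higher with the replicate block in the 6 arrays alone and 5 in the fit of 9 arrays.

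Of the 26 lists of T cell biology, that of cell division held the largest count and share of calls. Of 38 measured genes, 33 were higher in lung and 0 lower, with a median difference of 1.30, where 2.64% of all genes were higher. Cenpf, a kinetochore protein, lay at 6.85, 6.74 and 6.76 in lung and at 4.95, 5.01 and 5.13 in spleen (difference 1.75, SE 0.13, 3.37-fold, adjusted p = 0.00136). Mki67, the proliferation antigen Ki-67, lay at 9.78, 9.53 and 9.68 against 8.05, 8.66 and 8.34 (difference 1.31, SE 0.16, adjusted p = 0.00502). Mitotic genes such as Tpx2, Ccna2, Prc1, Kif11 and Top2a rose by 1.67, 1.66, 1.62, 1.59 and 1.48, and the replication genes Mcm3 and Mcm4 by 1.02 and 0.67. The 5 that did not pass were Cdca3, Mcm2, Mcm6, Mcm7 and Tk1. Averaged over the list, the values were 6.06, 6.45 and 6.40 for spleen, 6.88, 7.03 and 7.28 for control lung and 7.77, 7.41 and 7.40 for resolving lung, 3 ranges with no overlap. When replicates were blocked, 6 genes of the list were higher in the 6 arrays alone and 29 in the fit of 9 arrays, and 29 were higher without lung replicate 1. Bulk samples such as these do not tell a larger share of dividing cells from more RNA per cell, and the same holds for every gene here.

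Genes for calcium-binding S100 proteins, galectins, annexins and the cytoskeleton that goes with them were also higher, 11 of 23 with 0 lower (median 0.72). Anxa1 lay at 7.03, 6.88 and 6.58 against 5.32, 5.44 and 4.51 (difference 1.74, SE 0.23, adjusted p = 0.00564). S100a4 lay at 10.07, 9.65 and 9.19 against 8.32, 8.38 and 8.30 (difference 1.30, SE 0.21, adjusted p = 0.0109). Anxa2, Anxa4, S100a6, Ahnak, Crip1, Tagln2, Vim and Lmna were higher by 1.26, 1.26, 1.10, 0.73, 0.72, 0.69, 0.63 and 1.87, with Lgals1 as given above. With the replicate block, 4 were higher in the 6 arrays alone and 13 in the fit of 9 arrays.

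Few genes of housekeeping metabolism passed the threshold. Of 29 genes of oxidative phosphorylation and 27 cytosolic ribosomal proteins 0 passed. Of 21 glycolysis genes only Pfkm passed, which fell by 0.77, and of 26 genes of cholesterol and fatty acid synthesis 1 was higher and 0 were lower, and 0 passed with the replicate block in the 6 arrays alone. Clock genes differed more often, 6 of 19 higher and 1 lower, and Nfil3, Bhlhe40 and Rora among them are factors already given. Per1, a core clock gene, was higher by 1.01 (SE 0.12, adjusted p = 0.00438), and Dbp, an output of the clock, was lower, at 5.97, 6.10 and 6.11 in lung and 6.98, 7.25 and 6.92 in spleen (difference -0.99, SE 0.09, adjusted p = 0.00201). Under the replicate block, 1 clock gene was higher and 1 lower in the 6 arrays alone, and 7 and 1 in the fit of 9 arrays. Of 34 interferon-stimulated genes 1 was higher and 4 lower, among the latter Slfn5 by -0.69 and Usp18 by -0.96, and with the block in the 6 arrays alone 0 passed. Of 29 genes of T cell receptor signalling 2 were higher (Sla and Malt1) and 2 lower (Ptpn6 among them), and with that block 0 passed. The interferon and T cell receptor counts were near the share of all bright genes that passed in either direction, 11.5%. Of 16 genes of the Bcl2 family, Pmaip1 (Noxa) and the noncoding RNA Morrbid were higher by 1.65 and 1.16 (adjusted p = 0.00291 and 0.00364), and with that block neither passed (0.0714 and 0.0724).

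**Figure D4:**
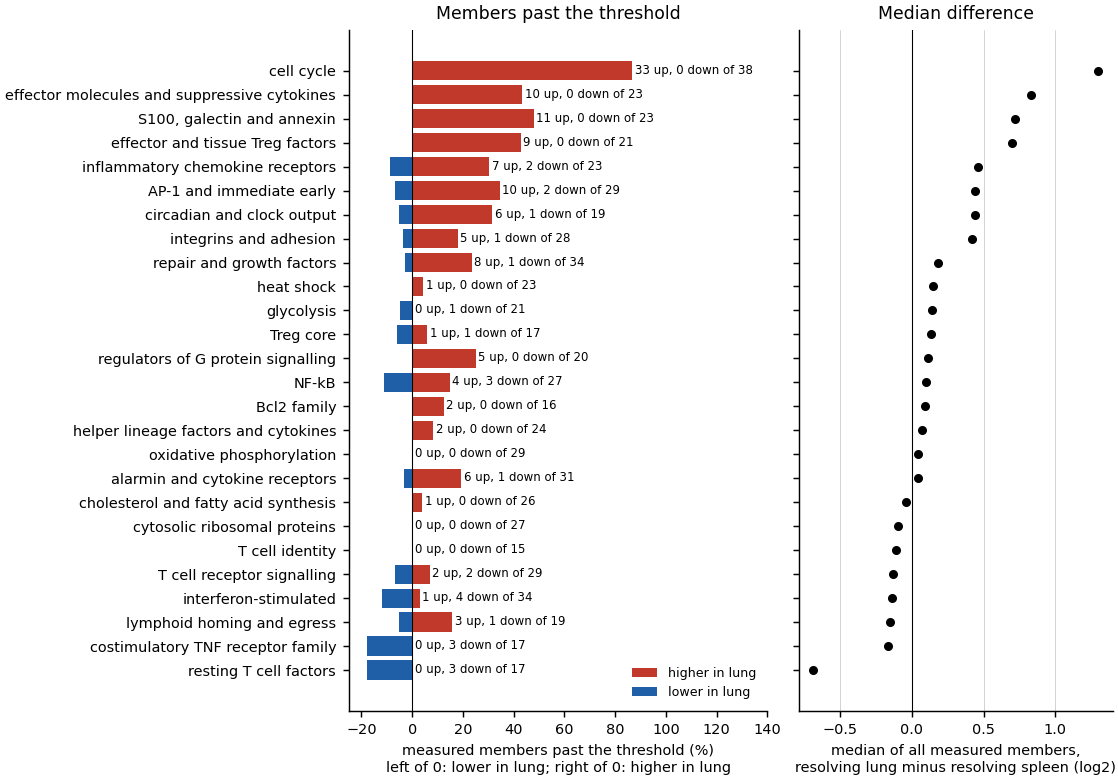
For each of 26 gene lists of T cell biology, the left panel gives the percentage of measured members past the threshold, higher in lung to the right and lower to the left, and the right panel the median log2 difference of all measured members. Cell cycle genes stand highest, with 33 of 38 higher and a median of 1.30, and resting T cell factors lowest, at -0.69.

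Genes tied to repair, growth and matrix turnover were mostly dim. On this list 8 of 34 were higher (Sik1 among them), Csf1 was lower (difference -0.62, adjusted p = 0.027), and 10 were bright. Besides Areg and Gpnmb, Mmp12, the elastase of macrophages, lay at 5.63, 6.76 and 6.38 in lung and at 2.73, 2.73 and 2.88 in spleen. All spleen arrays were below the dim level, so the difference was at least 2.87 (at least 7.33-fold, adjusted p = 0.00136). In control lung Mmp12 was at 3.23, 2.78 and 3.23, below the dim level as well. C3ar1, the receptor of the complement fragment C3a, lay at 6.82, 5.46 and 5.21 against 2.52, 2.31 and 2.32, at least 2.45 higher (adjusted p = 0.00274). Plaur, the urokinase receptor, and the metalloproteases Adam8 and Mmp19 rose by 2.04, 1.71 and 1.50. Other growth factors, such as Hbegf, Ereg and Tgfa, were at means of 2.97, 2.11 and 2.55 in lung. After blocking by replicate number, 5 of the 34 were higher and 0 lower in the 6 arrays alone, and 8 and 1 in the fit of 9 arrays.

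Among genes with a mean below 5, 107 of 13534 were higher and 176 lower (2.09% together). Outside the lists of other cells, and besides Mmp12 and C3ar1, the largest rises were those of Saa3, an acute phase protein (8.51, 6.32 and 5.08 in lung, at least 3.25 higher than in spleen, adjusted p = 0.0153), Cxcl16, the ligand of CXCR6 (7.68, 6.62 and 6.12, at least 3.42 higher, adjusted p = 0.00209), and Gprc5a. Gprc5a, an orphan receptor of lung epithelium induced by retinoic acid, lay at 5.93, 6.74 and 5.62 against 3.13, 3.40 and 3.40 (difference 2.79, SE 0.25), and at 7.47, 7.16 and 7.30 in control lung. The largest falls outside those lists were those of Itgad (CD11d), the erythroid ankyrin Ank1, Slfn14, Lad1 and Arhgap20. Itgad, which red pulp macrophages carry, was at 2.29, 2.34 and 2.39 in lung and 5.61, 3.81 and 4.89 in spleen, at least 1.35 lower in lung. Ank1 and Slfn14 were also below the dim level in all lung arrays, and their differences were at least 1.17 and 1.01 in size. When replicates were blocked in the 6 arrays alone Saa3 (0.101) and all of these falls but Lad1 (0.0538 to 0.136) lost their call.

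Small RNA genes on the array gave 1 pattern, which was noticed in these data and is given as values. Small nucleolar RNAs guide the chemical modification of ribosomal RNA, and their genes mostly lie in introns of other genes. Of 91 bright ones, 85 had a difference below 0, 23 were lower past the threshold and 0 were higher, with a median difference of -0.57. Beside this, 3960 of 7218 bright protein-coding genes had a difference below 0, and 5.55% of all bright genes were lower past the threshold. Below 0 were also 61 of 90 bright long noncoding RNAs (median -0.22) and 31 of 38 bright transcribed pseudogenes (-0.27). The pattern was therefore not particular to small nucleolar RNAs. Among bright microRNA genes 17 of 35 were below 0 (median 0.01). Snord71 was at means of 8.78 in lung and 10.03 in spleen (difference -1.25, adjusted p = 0.0139), and Snord66 at 8.45 and 9.57 (difference -1.12, adjusted p = 0.0243). Control lung lay between, at 9.63 and 9.11. With the replicate block, 3 of the 91 were lower in the 6 arrays alone and 28 in the fit of 9 arrays, and 6 were lower without spleen replicate 1. Without lung replicate 1, 18 of the 91 were lower. Of 531 microRNA genes, 35 of them bright, 1 was higher and 3 were lower, where 2.64% and 2.82% of all genes were. Mir21a, a microRNA induced in activated T cells, lay at 8.19, 8.49 and 8.38 in lung and at 7.50, 7.55 and 7.82 in spleen (difference 0.73, SE 0.11, adjusted p = 0.00813, and 0.0758 with the replicate block in the 6 arrays alone). Mir342 was below the dim level in all lung arrays and lower by at least 0.44, at 3.69, 3.66 and 4.23 in spleen (adjusted p = 0.00296, and 0.0594 with that block). The main products of both are printed with the seed, bases 2 to 8, in capitals (RefSeq, GRCm38.p6). The array rows cover transcripts of these loci and do not tell the mature RNA from its precursor.
mmu-miR-21a-5p: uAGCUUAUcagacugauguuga
mmu-miR-342-3p: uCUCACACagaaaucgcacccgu

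Transcripts of other resident cells were present in both organs and differed between them. Of the 91 bright genes on such lists 8 were higher and 13 lower in lung. Lung epithelial genes were higher in lung for 9 of 53 with 0 lower, the list mean being 4.11, 3.70 and 3.74 in resolving lung, 3.03, 3.16 and 3.22 in resolving spleen and 4.95, 4.22 and 4.18 in control lung. Sftpc, surfactant protein C of alveolar type II cells, lay at 8.48, 7.24 and 7.17 against 2.75, 3.87 and 4.86 (difference 3.80, SE 0.59, adjusted p = 0.0103). Scgb1a1, of club cells, was at 9.78, 8.59 and 9.67 against 3.41, 6.26 and 7.41 and did not pass (adjusted p = 0.0592). Epcam, a general epithelial marker, was at 5.17, 5.10 and 4.77 against 5.15, 5.16 and 5.13 (adjusted p = 0.669). Of the 53 genes, 21 exceeded the dim level in every lung array and 11 in every spleen array. Their part in other rises, such as that of Gprc5a, was not tested.

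Macrophage genes were higher in lung for 5 of 49 with 0 lower (median 0.94), where 2.64% of all genes and 5.99% of bright genes were higher. Without lung replicate 1 the median was 0.32 and 9 were higher, and 2 or 3 were higher without any 1 spleen array or lung replicate 2. Averaged over the list, spleen arrays were at 4.35, 3.98 and 3.89 and lung arrays at 6.44, 4.53 and 4.46. Marco, of alveolar macrophages, was at 5.08, 2.53 and 2.16 in lung, above the dim level in replicate 1 alone, and Adgre1, another macrophage marker, was at 7.36, 4.41 and 4.64 in lung and 5.98, 4.64 and 4.64 in spleen. C1qa was at 8.04, 5.55 and 5.36 against 6.53, 5.55 and 5.64. The marker Chil3 was higher in every lung array, at 10.02, 6.90 and 7.12 against 6.15, 5.29 and 4.95, and did not pass (difference 2.55, adjusted p = 0.189). Ccl3, a chemokine that activated T cells make as well, lay at 10.10, 8.83 and 8.30 against 5.70, 5.77 and 4.89 (difference 3.63, SE 0.49, adjusted p = 0.00645), and Itgam (CD11b) differed by 1.94. Of genes named above that macrophages are known to express, Gpnmb, Lilr4b and Ptafr differed by 3.01, 2.94 and 1.67 without lung replicate 1, C3ar1 still passed (adjusted p = 0.00032), and Mmp12 had its lowest lung value in that array. Leaving out that array does not remove macrophage transcripts, since the list means of the other resolving lung arrays, 4.53 and 4.46, still exceeded those of spleen. The part of macrophage transcripts in these and in other rises was not tested. Neutrophil genes were higher for 2 of 31 and lower for 1. S100a8, their defining marker, was at 5.69, 4.15 and 3.93 against 4.60, 4.81 and 4.59, and Il1b, which macrophages also make, at 10.01, 6.59 and 6.40 against 4.03, 3.44 and 2.44 (difference 4.37, SE 1.03, adjusted p = 0.0481), a call lost without lung replicate 1 (0.0565). Of the 39 genes of endothelium 1 was higher and 0 lower. It was Stmn2, below the dim level in every array (2.59, 3.17 and 2.96 against 2.32, 2.43 and 2.23). Of the 53 genes of fibroblasts and smooth muscle 1 was higher and 0 lower. It was Fn1, at 9.18, 7.05 and 7.42 against 5.43, 4.39 and 4.04 (difference 3.26, adjusted p = 0.0155). The defining markers of both lists did not pass. Col1a1 was at 6.86, 3.08 and 3.20 in lung, above the dim level in replicate 1 alone. Cdh5, at 5.98, 4.18 and 4.13, was above it in all lung arrays and in no spleen array. Lung replicate 1 had the highest mean of the 6 arrays for both lists, 4.01 and 4.25.

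The spleen side carried its own transcripts. Their part in the falls of other genes was not tested. Red pulp macrophage genes were lower in lung for 5 of 17 with 0 higher (median -1.09). Slc40a1, the iron exporter ferroportin, lay at 3.51, 2.90 and 2.90 in lung and at 7.51, 6.32 and 6.41 in spleen (difference -3.65, SE 0.31, adjusted p = 0.00176), and Spic, the factor that defines these cells, at 3.37, 3.01 and 3.02 against 6.64, 5.38 and 5.49 (difference -2.71, adjusted p = 0.00352). B and plasma cell genes were lower for 13 of 43 with 0 higher (median -0.82), with a list mean of 5.0, 4.90 and 5.01 in lung and 5.52, 6.15 and 5.65 in spleen. Cr2, the complement receptor of B cells, lay at 3.54, 3.35 and 2.92 against 5.59, 6.97 and 5.96 (difference -2.90, adjusted p = 0.00364). Spleen replicate 2 was the highest, and Bank1 and Ms4a1 differed by -2.17 and -2.13. Erythroid and platelet genes were lower for 7 of 32 with 0 higher (2 and 3 lower without spleen replicates 1 and 2). Car1, carbonic anhydrase of red cell precursors, lay at 6.85, 6.01 and 5.25 in spleen. In lung Car1 was below the dim level, at least 2.62 lower. The defining markers Alas2 (erythroid) and Pf4 (platelet) did not pass. Alas2 lay at 4.15, 8.28 and 5.22 in lung against 6.83, 7.56 and 6.08 in spleen (difference -0.94, adjusted p = 0.687). Pf4 lay at 5.31, 2.73 and 2.79 against 2.72, 2.43 and 2.52 (difference 1.05, adjusted p = 0.423). It was above the dim level in lung replicate 1 alone. Dendritic cell genes gave 1 fall of 28 (H2-Oa, -1.33), and lists of CD8 T or NK cells (25), cardiac muscle (21) and mast cells and basophils (11) gave 0 calls. Under the replicate block in the 6 arrays alone, the calls were 3 of 53 for epithelium, 2 of 49 for macrophages, 0 of 31 higher and 1 lower for neutrophils, 5 of 17 for red pulp macrophages, 4 of 43 for B and plasma cells and 0 of 32 for erythroid cells and platelets.

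**Figure D5:**
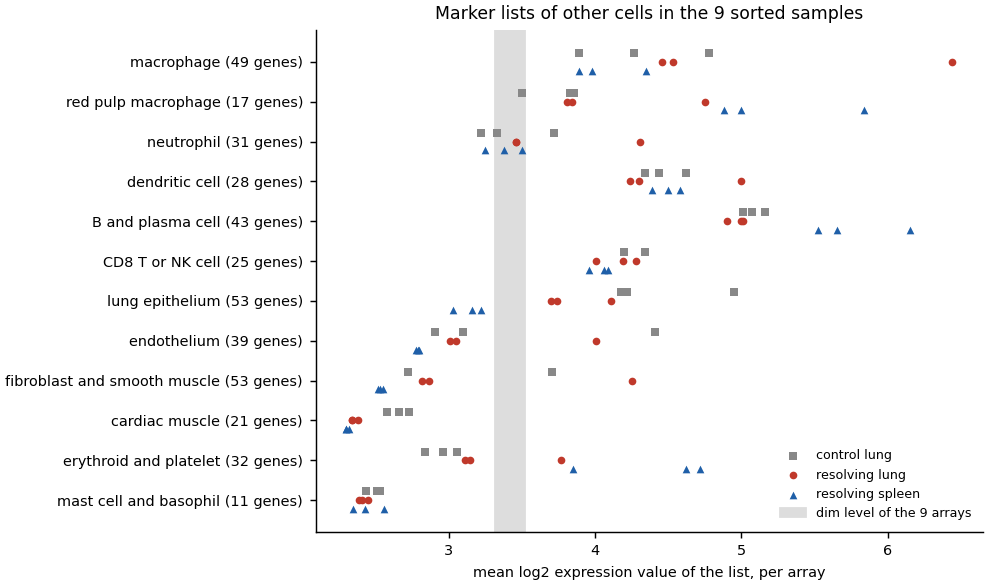
Mean log2 expression value of each of 12 marker lists of other cells, with 1 point per array for control lung (grey squares), resolving lung (red circles) and resolving spleen (blue triangles), and the range of the dim level of the 9 arrays as a grey band. Resolving lung replicate 1 stands far right for macrophages at 6.44, the spleen arrays stand right of the resolving lung arrays for red pulp macrophages and B cells, and the lung arrays stand right of the spleen arrays for epithelium.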

How the data were processed

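RNA of sorted CD4+ GFP+ cells (225 ng of total RNA per array, per the labels' protocols) was measured on the Mouse Gene 2.1 ST array of Affymetrix, with 3 arrays for each group. The deposited log2 values were used as they stood (1.07 to 12.85). Per the submitters' processing notes the authors used Affymetrix Expression Console, RMA and Partek. Versions and build are not given in the sources used here. Since RMA equalises distributions between arrays, it hides any shift common to most genes, and differences of dim genes are understated. The protocol leaves out the DNase step. The number of arrays limits the precision.

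Of 31351 rows, 21059 matched 1 symbol of the RefSeq gene list (GRCm38.p6, names only), 0 several and 10292 (32.8%) none. Where a gene had more than 1 row (35 genes), the brightest was taken, which left 21024 genes. All 9 arrays were fitted with limma 3.58.1 (lmFit and eBayes, R 4.3.3, 6 residual and 2.29 prior degrees of freedom), without trend or block, two-sided, at a Benjamini-Hochberg adjusted p of 0.05 over all 21024 genes, with no fold minimum and no filter on low values. With 3 arrays a side, exact permutation could reach no p under 0.1 and was not used. Where a gene lay at or below the dim level in every array of a group, a lower limit of the difference is given. It is the brighter mean minus the mean dim level of the arrays of the other group. This limit bounds the estimate and does not allow for the spread among arrays. Figures and motif counts used Python 3.11.15, pandas 2.3.3 and matplotlib 3.10.9.

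Pairing was checked on the deviations of each array from its group mean. Over all genes, lung and spleen arrays of the same replicate number correlated at 0.17, 0.13 and 0.16 (0.21, 0.21 and 0.30 over bright genes) and those of different numbers at 0.02 or less. Since the deviations within a group sum to 0, positive values for the same number bring lower ones for different numbers. The latter are no separate evidence. The labels' numbers were therefore taken to pair the arrays of injured mice. The pairing comes from the data and the titles' numbers, no label says what a number shares, and the replicate 1 arrays of both organs share a low Xist level.

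The genes named in the text were the 15 largest rises and falls among called bright genes with no overlap between lung and spleen arrays, outside lists of other cells and without predicted, pseudogene or small RNA loci, the 5 largest of dimmer genes, each list's largest members and defining markers, a fixed set (Areg, Cd4, Ctla4, Foxp3, Il10, Il1rl1, Il2ra, Mmp12 and Sik1, and Penk, which is not analysed here), and further list members with values only. The small RNA genes, Xist, the Y-linked genes and the genes at the brightness limit were chosen after their values were seen. The members, the 38 lists (26 of T cell biology and 12 of other cells) and the motifs were chosen with earlier results of these data known. Some genes that the rule names are not reported here. Lists are described by counts and medians, with no test of a list. Alternatives were the 6 arrays alone, the replicate block, a variance trend, a robust prior, array weights, quantile normalisation, median centring, all rows, bright genes alone, a filter on dim genes, the mean of several rows, other brightness limits and leaving out arrays.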

Additional observations from a re-analysis of the deposited data

How the results depend on the processing

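No bright call changed its direction in any alternative, a change that most alternatives could not have brought about, as given above. Of the 139 called genes among those named, 36 passed in every alternative and 116 without lung replicate 1. With a replicate block 124 passed in the fit of 9 arrays and 47 in that of the 6 arrays alone. Those 47 passed narrowly, at adjusted p-values of 0.0496 to 0.0499. Counts are given as higher and lower in lung, for all genes (556 and 592), bright genes (449 and 416), bright genes outside the lists of other cells (441 and 403), the 26 lists of T cell biology summed (116 and 25) and the 12 lists of other cells summed (18 and 27). With the 6 arrays of injured mice alone they were 350 and 354, 296 and 248, and 291 and 239, and the lower counts of the list sums were 12 and 17. With the replicate block in the 6 arrays alone, which rests on the pairing of numbers, they were 93 and 82, 73 and 49, 70 and 43, 31 and 7, and 7 and 11. Fewer samples enter these fits. With both replicate 1 arrays of injured mice left out they were 302 and 225, 243 and 139, and 235 and 126, with 14 lower in the lists of T cell biology. Testing bright genes alone, with fewer genes to adjust for, gave 689 lower bright genes and 668 outside the lists of other cells. Leaving out 1 array at a time gave 266 to 596 higher and 242 to 535 lower over all genes, 235 to 450 and 151 to 397 over bright genes, 230 to 443 and 139 to 383 outside the lists of other cells, 77 to 121 and 9 to 30 in the lists of T cell biology, and 9 to 23 and 23 to 27 in those of other cells. The lowest counts of the first 3 sets came without spleen replicate 1, and the cause was not tested. Of the bright calls, 513 were kept with the 6 arrays alone and 334 without both replicate 1 arrays. The other alternatives, the fit of 9 arrays with a replicate block among them (431 and 395 bright), stayed within 1.5 times the counts given. Signal over background limits dim genes, for which limits are given in place of estimates where a group lay below the dim level.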

Other observations

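Of the 10292 rows that matched no symbol, 42 were higher and 143 lower in lung in a fit of all rows, and of the 1494 bright ones 25 were higher and 70 lower. They are not named here.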
